A study of Caenorhabditis elegans with 12 samples.

Results

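The *phat* genes (pharyngeal gland toxin-related) of *C. elegans* were examined in L4 larvae that carried or lacked *raga-1*, which encodes a Rag GTPase that activates the growth kinase complex TORC1. The family was chosen by the measured change of *phat-5*, which was among the largest in these data, so the values of *phat-5* are given as a description with no test. The genes whose symbol in the deposited tables is *phat-1* to *phat-6* were taken, which gave 6 of 21882 genes. All 6 passed the filter on low counts. Relative to wild type, *phat-5* was at a higher level and *phat-3* at a lower level in both strains that lacked the chromosomal copy of *raga-1*. *phat-4* was lower in the rescue strain. *phat-1*, *phat-2* and *phat-6* did not pass the main test in any comparison.

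Whole-worm RNA was sequenced from 12 samples at the mid-L4 stage, 4 of each strain, fed HT115 bacteria with the L4440 vector. Each sample pooled about 1000 larvae of its own timed egg lay, so the replicates are separate cultures. Wild type (WT) was N2, the mutant was *raga-1(ok386)*, and the rescue strain was *raga-1(ok386)* with an extrachromosomal array, *rab-3p::raga-1::SL2::mCherry*, in which a neuronal promoter drives *raga-1* together with a red fluorescent marker. Rescue larvae were picked under a fluorescence microscope for the array, whereas WT and mutant larvae were washed directly off their plates, so the effects of the array and of picking cannot be told apart. The study's images of adults also show the array expressed in the intestine. It may therefore not have been limited to neurons in these larvae, which was not checked here. Mutant and rescue samples of the same number were collected on the same day, but WT samples were collected on a partly different set of days.

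The pharynx is the feeding organ of the worm, a tube of muscle, epithelium, neurons and gland cells. The gland cells make secretory granules and release their contents through ducts into the pharyngeal lumen, and they are known to be active in feeding and around moults. Many gland genes depend on HLH-6, a basic helix-loop-helix factor, and the *phat* genes are named for expression in these glands and for likeness of their products to toxins. A moult follows the L4 stage, and many cuticle and moulting genes oscillate in level within each larval stage.

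Expression is given as CPM, the count of a gene relative to its library's total, after correction for library composition by TMM (edgeR's trimmed mean of M values). The libraries held between 14287510 and 35619305 estimated counts, and 3 counts correspond to 0.21 CPM in the smallest library, WT replicate 1. *raga-1* itself lay between 61.8 and 70.2 CPM in WT, between 1.42 and 1.76 CPM in the mutant and between 805 and 891 CPM in rescue, so each library matched its label. The WT samples were less alike than those of the other strains, with replicates 1 and 3 on the opposite side of the second principal component from replicates 2 and 4. Because whole worms were sequenced, fewer gland cells and less RNA per gland cell cannot be told apart.

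The family falls into several small genomic groups (WBcel235 coordinates, current Ensembl annotation). *phat-1* (WBGene00016732, chromosome I, 5044198 to 5045720) and *phat-2* (WBGene00016733, chromosome I, 5046394 to 5048003) lie on the minus strand 673 bp apart. *phat-3* (WBGene00016782, chromosome V, 4043932 to 4044951) is on the plus strand. *phat-5* (WBGene00020242, chromosome V, 4121489 to 4122515) on the minus strand and *phat-4* (WBGene00020237, chromosome V, 4129904 to 4130909) on the plus strand lie 7388 bp apart, facing away from each other. *phat-6* (WBGene00011683, chromosome X, 15193086 to 15194383) stands alone on the minus strand. The newer annotation adds *phat-7* (C49G7.3 in the deposited tables), 1470 bp from *phat-3* on the same strand, and *phat-8* (F15A4.6) on chromosome II. Both are shown for comparison and are not counted as members.

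The chromosome V genes are built alike. *phat-3*, *phat-4*, *phat-5* and *phat-7* each have 3 exons, and their coding segments are 99, 262 and 383 bases in *phat-3* and in *phat-7*, 90, 262 and 392 in *phat-4*, and 102, 259 and 386 in *phat-5*. Their coding lengths are 744 bases, or 747 in *phat-5*. *phat-1* has 5 exons and 882 coding bases, *phat-2* has 4 and 747, and *phat-6* has 5 and 612. Reads shared between the chromosome V genes could be divided between them by the abundance estimate, so their separate values are less certain than their sum.

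Per kilobase of exon, the wild type levels spanned a wide range. *phat-4* was the highest at 127 ± 14.1 CPM per kb (SD, n = 4), followed by *phat-7* at 101 ± 4.43 and *phat-2* at 40.1 ± 5.76, and the sample ranges of these 3 genes did not overlap. *phat-8* at 16.4 ± 3.88 and *phat-1* at 13.3 ± 4.73 CPM per kb overlapped, as did *phat-1* and *phat-6* at 7.11 ± 0.452. *phat-3* at 5.82 ± 0.62 CPM per kb lay just under *phat-6*, with no overlap, and *phat-5* was last at 0.154 ± 0.123. In the mutant *phat-4* at 101 ± 7.24 CPM per kb and *phat-7* at 90.7 ± 10.5 overlapped, and the order differed at its lower end. There *phat-5*, at 3.52 ± 0.34 CPM per kb, overlapped with *phat-3* at 2.92 ± 0.73. In rescue they overlapped too, at 2.45 ± 0.642 for *phat-5* and 3.18 ± 0.553 for *phat-3*, and *phat-4* at 80.6 ± 8.39 overlapped with *phat-7* at 79.7 ± 6.43.

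**Figure D1:**
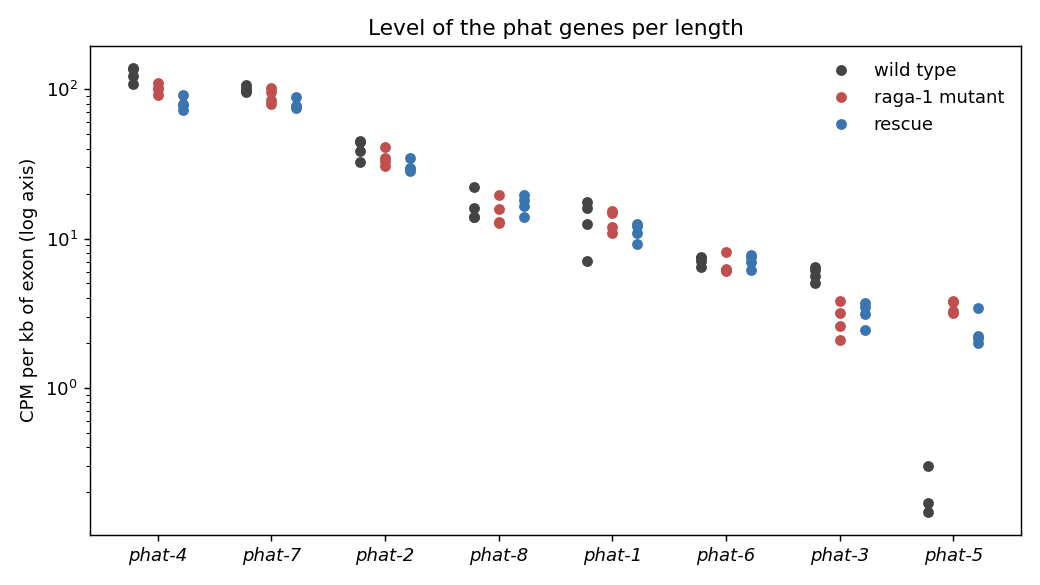
Level of each *phat* gene per kilobase of exon, in CPM per kb on a log axis, with 1 point per sample and 4 samples per strain; *phat-5* in WT replicate 1 had 0 counts and is not drawn. *phat-4* and *phat-7* are the highest, and *phat-5* moves from far below *phat-3* in WT to the same range in the mutant and rescue strains.

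*phat-5* was nearly absent from wild type larvae and present in every mutant and rescue sample. Its counts in WT replicates 1 to 4 were 0, 3, 7 and 4, which correspond to 0, 0.134, 0.274 and 0.155 CPM. In the mutant the counts were 85, 124, 62 and 62, or 3.45, 3.52, 2.99 and 2.91 CPM. In rescue they were 50, 50, 93 and 61, or 2.04, 1.97, 3.11 and 1.84 CPM. Every mutant and rescue sample lay above every WT sample, and the mutant and rescue ranges overlapped, through rescue replicate 3 alone.

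Summed over samples and corrected for library size, *phat-5* counts were 20.4 times as high in the mutant as in WT (333 against 14 counts, 95% interval 12 to 37.8) and 14.1 times as high in rescue (254 counts, interval 8.23 to 26.1). These intervals cover counting error only, and are no test of a gene chosen for its change. The rescue level was 0.689 times that of the mutant, and the samples of these strains overlapped. By the size of the fitted log2 fold change, *phat-5* ranked 12 of 15728 genes for mutant against WT, 20 for rescue against WT and 1403 for rescue against mutant.

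*phat-5* remained a small part of the output of its chromosomal group. It made up 0 to 0.123% of the summed counts of *phat-3*, *phat-4*, *phat-5* and *phat-7* in WT, 1.6 to 2.18% in the mutant and 1.21 to 2.14% in rescue. As a share of *phat-4*, the neighbour that faces away from it, *phat-5* was 0 to 0.221% in WT, 3.06 to 4.29% in the mutant and 2.48 to 4.48% in rescue. Few of its neighbours were expressed above the filter. Besides *phat-4*, 15 genes lie within 20 kb or on the same clone, of which 2 passed the filter on low counts and the other 13 had at most 13 counts in any library. Of those 2, *clc-18* (T05B4.14) was lower in rescue than in WT (log2 fold change -0.54, edgeR adjusted p = 0.00501).

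*phat-3*, a near twin of *phat-7* in layout, was the only one of the other 5 members to pass the test in the mutant, in the lower direction. Its level in WT replicates 1 to 4 was 5.94, 5.70, 5.17 and 4.66 CPM. In the mutant it was 3.49, 2.92, 2.41 and 1.93 CPM. In rescue it was 3.23, 3.40, 2.24 and 2.86 CPM. Every WT sample was above every mutant and rescue sample, and the mutant and rescue ranges overlapped.

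*phat-3* fell by 49.5% in the mutant (log2 fold change -0.98, SE 0.184, edgeR quasi-likelihood test, Benjamini-Hochberg adjusted p = 0.00237). Against WT the rescue level was lower by 0.87 on the log2 scale (log2 fold change -0.87, SE 0.182, edgeR adjusted p = 0.00309). This second call was lost without rescue replicate 3 or without rescue replicate 4, with an adjusted p of at most 0.0112. Rescue and mutant did not differ beyond their spread (log2 difference 0.11, 95% interval -0.29 to 0.52, edgeR adjusted p = 0.79). The WT samples serve in both comparisons, so the 2 falls are not independent. Counts of *phat-5* were 0 to 5.3% of *phat-3* counts in WT, 98.8 to 151% in the mutant and 58.1 to 139% in rescue. Over the 12 samples *phat-3* ran opposite to *phat-5* (Pearson r = -0.886, and -0.265 after subtraction of strain means). These genes may share reads, and whether the fall of *phat-3* is separate from the rise of *phat-5*, which chose the family, was not tested.

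The adjacent *phat-7* did not pass the test in the mutant and was lower in rescue. WT replicates 1 to 4 held 89.4, 88.2, 92.9 and 97.2 CPM of *phat-7*. Mutant replicates held 93.8, 73.0, 77.1 and 87.9 CPM, and rescue replicates 81.6, 70.3, 70.9 and 68.7 CPM. The mutant range overlapped with WT (log2 fold change -0.15, SE 0.083, edgeR adjusted p = 0.202), and the rescue samples were all below WT (-0.34, SE 0.0831, adjusted p = 0.00779). *phat-3* counts as a share of *phat-7* counts were 4.8 to 6.65% in WT, 2.19 to 4% in the mutant and 3.17 to 4.83% in rescue. The WT and mutant shares do not overlap, and the WT and rescue shares touch at WT replicate 4. The comparison of these neighbours was chosen after their values were seen and was not tested.

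*phat-4*, the most abundant member, was lower in rescue than in WT. Its level in WT replicates 1 to 4 was 109.1, 97.0, 123.8 and 122.6 CPM. Mutant replicates held 91.3, 82.1, 97.8 and 89.5 CPM, and rescue replicates 82.3, 64.5, 69.6 and 71.6 CPM. Every rescue sample was below every WT sample, while the mutant range reached just into that of WT and overlapped with rescue at its lower end.

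Relative to WT, *phat-4* in rescue fell by 36.4% (log2 fold change -0.65, SE 0.0939, edgeR adjusted p = 2.79e-04). In the mutant the log2 fold change was -0.33 (SE 0.0936, interval -0.53 to -0.12), which did not pass the threshold (edgeR adjusted p = 0.0212). It did so with DESeq2 and, by edgeR, without WT replicate 2, the lowest of the WT samples. Between rescue and mutant the difference was -0.32 on the log2 scale (SE 0.0937, interval -0.53 to -0.12, edgeR adjusted p = 0.108).

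Since these genes may exchange reads, *phat-3*, *phat-4*, *phat-5* and *phat-7* were also summed to a single feature, a choice made after the data were seen. The sum lay between 191 and 225 CPM in WT, between 161 and 192 CPM in the mutant and between 140 and 169 CPM in rescue. Rescue was below WT by 0.49 on the log2 scale (log2 fold change -0.49, edgeR adjusted p = 5.57e-04). The mutant was at -0.23 against WT (SE 0.0777, adjusted p = 0.0403), which did not pass. *phat-4* and *phat-7* supply nearly all of this sum, so it cannot show whether reads passed between *phat-3* and *phat-5*. *phat-3* supplied 2.08 to 2.98% of it in WT, 1.06 to 1.82% in the mutant and 1.54 to 2.42% in rescue. A sum of *phat-3* and *phat-5* alone was not tested.

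**Figure D2:**
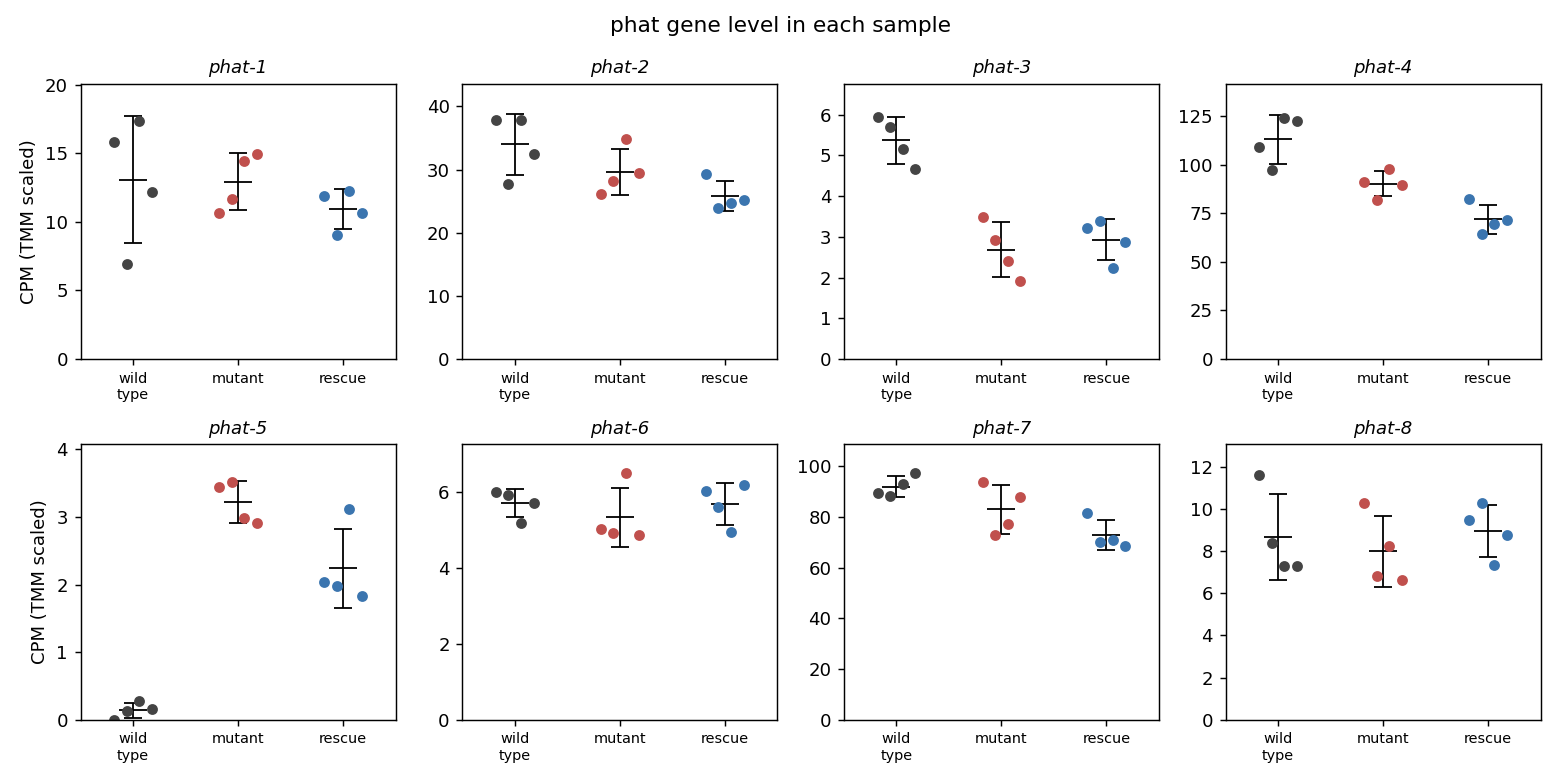
CPM of *phat-1* to *phat-8* in each of the 12 samples (points, 4 per strain in replicate order), with the mean (horizontal mark) and SD (bar) of each strain; each vertical axis starts at 0. *phat-5* lies at 0 to 0.274 CPM in WT and at 1.84 CPM or above elsewhere, *phat-3* falls in both strains, and *phat-4* falls in rescue.

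*phat-1* and *phat-2*, the adjacent pair on chromosome I, did not pass the edgeR test in any comparison, and *phat-1* varied widely among WT samples. *phat-1* was at 15.8, 6.91, 17.4 and 12.2 CPM in WT replicates 1 to 4. It was at 10.6, 11.7, 14.5 and 14.9 CPM in the mutant and at 11.9, 9.04, 12.2 and 10.6 CPM in rescue. The WT range enclosed every other sample. *phat-1* did not pass the test in the mutant (log2 fold change -0.01, SE 0.235, interval -0.53 to 0.50, edgeR adjusted p = 0.97) or in rescue (-0.25, interval -0.77 to 0.26, adjusted p = 0.424).

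In *phat-2*, as in *phat-1*, WT replicates 1 and 3 were the highest of their strain and replicate 2 the lowest. It was at 37.9, 27.7, 37.8 and 32.5 CPM in WT replicates 1 to 4, at 26.1, 28.1, 34.8 and 29.5 CPM in the mutant and at 29.3, 23.9, 24.7 and 25.2 CPM in rescue. The ranges of all 3 strains overlapped. *phat-2* was at -0.20 against WT in the mutant (SE 0.116, edgeR adjusted p = 0.226) and at -0.40 in rescue (SE 0.117, interval -0.65 to -0.14, adjusted p = 0.0182), neither of which passed. The fall of *phat-2* in rescue did pass with DESeq2 (-0.41, adjusted p = 0.00458) and, by edgeR, without WT replicate 2 (-0.49, adjusted p = 0.00352).

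Within WT, replicates 1 and 3 held the highest values of *phat-1* and *phat-2* and were also the highest in moulting genes. Rescue replicate 1, at a similar moulting level of 3959 CPM, held 11.9 CPM of *phat-1* and 29.3 CPM of *phat-2*, the highest *phat-2* value of its strain. Mutant replicate 3, the highest of its strain in moulting genes, was also the highest there in *phat-2* (34.8 CPM). For *phat-1* the highest samples, mutant replicate 4 and rescue replicate 3, were the lowest of their strains in moulting genes. The summed level of 20 moulting genes (cuticle proteins, proteases and regulators such as *nhr-23*) was 5577, 901, 3735 and 1473 CPM in WT replicates 1 to 4, against 1865 to 2513 CPM in the mutant and 2437 to 3959 CPM in rescue. This sum is led by its most abundant genes. *nhr-23* itself varied little in WT (mean 56.1 CPM, SD 1.83), so the sum does not describe every listed gene. The summed level of the 4 tested genes of the pharyngeal gland and its regulator was also higher in WT replicates 1 and 3, at 36.6, 13.9, 35.7 and 21.6 CPM. Most of that sum is B0280.7, at 28.2, 6.46, 25.9 and 13.2 CPM. The part of moulting stage in the values of *phat-1* and *phat-2* was not tested.

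With WT replicates 1 and 3 left out, *phat-1* in the mutant stood at 0.41 against WT (edgeR adjusted p = 0.164), and with WT replicates 2 and 4 left out *phat-1* in rescue stood at -0.60 (adjusted p = 0.00802). These pairs were chosen after the data were seen and separate the higher from the lower WT values of *phat-1* itself, so the direction of each shift is set by the choice and the values are given as a description. WT replicate 2, which had the least moulting expression, was also the lowest WT sample in *phat-4* (97.0 CPM), whereas replicate 4, the next lowest in moulting genes, held 122.6 CPM. *phat-3* in replicate 2, at 5.70 CPM, was the second highest of its strain.

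**Figure D3:**
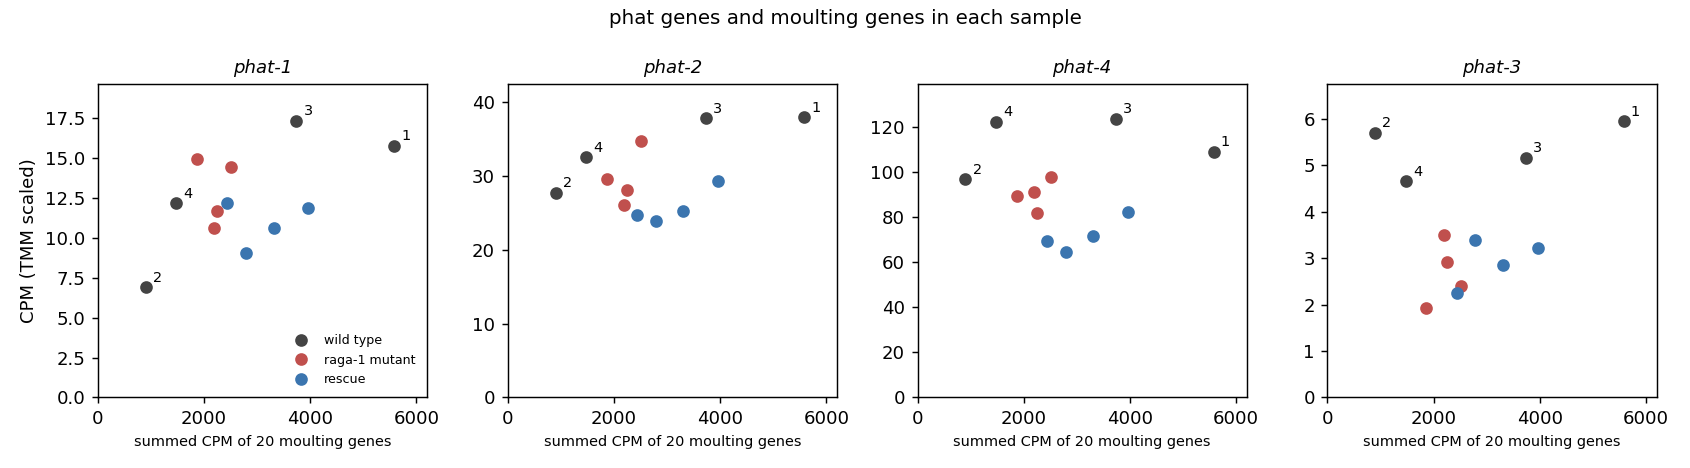
CPM of *phat-1*, *phat-2*, *phat-4* and *phat-3* (vertical axes, from 0) against the summed CPM of 20 moulting genes (horizontal axis) in the 12 samples, with WT samples numbered by replicate. WT replicates 1 and 3 are high in moulting genes and in *phat-1* and *phat-2*, while *phat-3* in every WT sample lies above every sample of the other strains.

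*phat-6*, the X-linked member, showed no difference beyond its spread. It was at 6.02, 5.93, 5.20 and 5.71 CPM in WT, at 5.04, 4.94, 6.51 and 4.89 CPM in the mutant and at 6.04, 5.61, 4.96 and 6.20 CPM in rescue. All ranges overlapped. The log2 fold change was -0.10 in the mutant (interval -0.36 to 0.16, edgeR adjusted p = 0.57) and -0.00073 in rescue (interval -0.26 to 0.26, adjusted p = 0.997). *phat-8* likewise did not pass in either strain, with levels (SD, n = 4) of 8.64 ± 2.04 CPM in WT, 7.99 ± 1.69 in mutant and 8.95 ± 1.25 in rescue samples.

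Over the 5 members other than *phat-5*, mutant against WT gave 0 higher and 1 lower. Among all 15728 genes tested, 6.36% were higher and 9.01% lower, so 1 of 5 is not far from the background. The median log2 fold change of the 5 was -0.20, against 0.0031 over all genes. Rescue against WT gave 0 higher and 2 lower (*phat-3* and *phat-4*), where 10.2% of all genes were higher and 13.5% lower, and the medians were -0.40 and 0.04. All 5 lay below 0 in both comparisons, which share the WT samples, but *phat-1* in the mutant (-0.01) and *phat-6* in rescue (-0.00073) were at about 0 and changed sign in 8 and 11 of 22 alternatives.

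Rescue against mutant gave 0 of 5 by edgeR and 0 by DESeq2, with *phat-4* alone at an unadjusted p under 0.05 by edgeR. The same test called 0.305% of all genes higher and 0.0763% lower. The median of the 5 was -0.20, against -0.0023 over all genes.

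**Figure D4:**
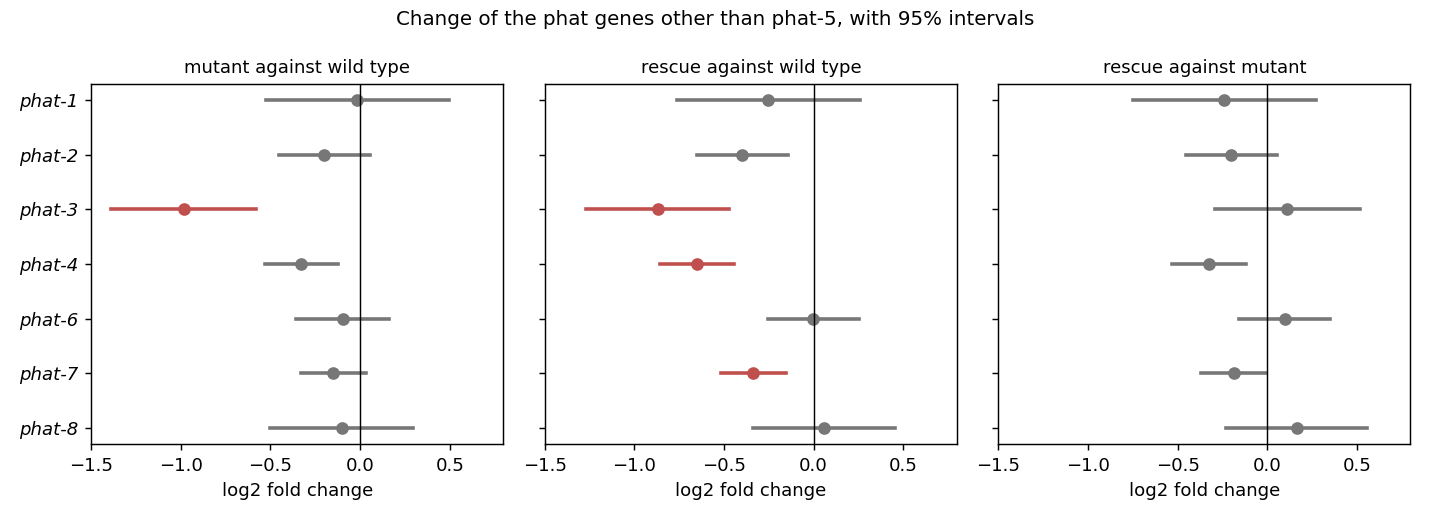
Log2 fold change (point) with its 95% interval (line) for the *phat* genes other than *phat-5* in each comparison, in red where the edgeR test passed at an adjusted p under 0.01. *phat-3* is lower in mutant and rescue against WT, *phat-4* and *phat-7* are lower in rescue against WT, and no gene passes between rescue and mutant.

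The known regulator and other gland genes did not pass the test. *hlh-6* was read at 3 to 18 counts per library and stood at a level (SD, n = 4) of 0.351 ± 0.115 CPM in WT, 0.373 ± 0.164 in mutant and 0.416 ± 0.206 in rescue samples. *kel-1*, a kelch-repeat gene of the gland, was at 3.32 ± 0.368, 3.24 ± 0.444 and 3.48 ± 0.95 CPM in WT, mutant and rescue. *nas-12*, an astacin-type protease, was at 4.85 ± 1.21, 4.14 ± 0.898 and 3.74 ± 0.58 CPM. Of the 5 genes listed for the gland and its regulator, 4 were tested and 0 passed in any comparison (smallest unadjusted edgeR p over the 3 strains 0.223, for *nas-12*), at medians of -0.09, 0.02 and 0.10 for mutant against WT, rescue against WT and rescue against mutant. The other, *gly-15*, had at most 14 counts.

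Among 8 transcription factors of the pharynx, 2 rose in the mutant, where 6.36% of all genes were higher. *pha-4*, the FoxA factor that specifies pharyngeal identity, was at 12.5, 11.7, 11.6 and 12.3 CPM in WT, at 18.7, 19.1, 21.6 and 20.5 CPM in the mutant and at 19.4, 16.5, 18.2 and 19.2 CPM in rescue. All mutant and rescue samples were above all WT samples, and *pha-4* passed in both (log2 fold changes 0.73 and 0.61, edgeR adjusted p = 5.26e-05 and 9.96e-05). *ceh-22*, a homeobox factor of pharyngeal muscle, rose in the mutant by a log2 fold change of 0.83 (edgeR adjusted p = 0.00988) and stood at 0.66 in rescue (adjusted p = 0.0228). *pha-4* is also expressed in the intestine and gonad, so its level in whole worms does not report on the pharynx alone.

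Genes of the other parts of the pharynx set a scale for these values. Of 5 pharyngeal muscle genes, such as the myosin *myo-2*, 0 passed in any comparison (smallest unadjusted edgeR p over the 3 strains 0.083, for *tni-4*). Among the *abu* genes, which encode cysteine-rich proteins linked to the pharyngeal cuticle, 13 of 15 were tested, and 2 passed as lower in rescue against WT, where 13.5% of all genes did. Their medians were -0.09 for mutant against WT, -0.57 for rescue against WT and -0.59 for rescue against mutant. The summed *abu* level was 1384 to 1703 CPM in WT, 1388 to 1595 in the mutant and 1035 to 1313 in rescue. *abu-4* was at 7.20 ± 1.28 CPM in WT and 3.69 ± 0.507 in rescue (log2 fold change -0.97, edgeR adjusted p = 2.5e-04), and *abu-11* at 142 ± 31.5 and 84.4 ± 12.8 CPM (-0.75, adjusted p = 0.00282). The 12 *nspb* genes had 0 calls (smallest unadjusted edgeR p over the 3 strains 0.0582, for *nspb-2*), with medians of -0.08 for mutant against WT, -0.57 for rescue against WT and -0.47 for rescue against mutant.

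Markers of other tissues were read beside these results. For mutant against WT, 1 of 6 intestine genes rose (*ifb-2*, 0.60, edgeR adjusted p = 0.00272) and 2 of 5 germ line genes fell (*glh-1* and *pgl-1*), while 0 of 6 neuronal, 0 of 5 body wall muscle and 0 of 5 epidermal genes passed. For rescue against WT, 3 of 5 germ line genes fell and 1 of 6 neuronal genes rose (*unc-64*), 1 of 20 moulting genes fell (*nhr-23*), and 0 intestine, body wall muscle and epidermal genes passed. Among all genes tested, 6.36% were higher and 9.01% lower for mutant against WT, and 10.2% and 13.5% for rescue against WT. The summed germ line level was 1932 to 2092 CPM in WT, 1636 to 1718 in the mutant and 1493 to 1647 in rescue, and the part of such shifts in the *phat* values was not tested.

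Of 48 genes within 20 kb of a member or on its clone, 27 were tested, and in the mutant 2 were higher and 1 lower than in WT. Both higher genes lie near *phat-3*, in the opposite direction to its own change. C49G7.7 was at 0.227 CPM on average in WT and 1.14 in the mutant (log2 fold change 2.35, edgeR adjusted p = 0.00525), and C49G7.12 at 0.237 and 0.606 CPM (1.31, adjusted p = 0.0018). Both WT means are near the 0.21 CPM that 3 counts give in WT replicate 1, so these fold changes are imprecise. In rescue against WT, 3 neighbours were higher and 4 lower, *phat-7* among the latter. These counts of 27 are near the shares of all genes called in the comparisons against WT. Those shares were 6.36% higher and 9.01% lower for mutant against WT, and 10.2% and 13.5% for rescue against WT. Rescue against mutant gave 2 higher and 0 lower of the 27, a larger share higher than the 0.305% of all genes. For all genes 0.0763% were lower there.

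Likeness among members was uneven across the 12 samples. The correlation of each member's log2 CPM with the mean of the other members was highest for *phat-2* (Pearson r = 0.914), which ranked first of 15723 genes by this measure, followed by *phat-4* (r = 0.664). It was 0.362 for *phat-1*, 0.122 for *phat-3*, 0.0689 for *phat-6* and -0.743 for *phat-5*. After subtraction of each strain's mean, *phat-1* and *phat-2* gave r = 0.842 and *phat-2* and *phat-4* gave r = 0.709, whereas *phat-3* and *phat-4* gave -0.20. For *phat-3* and *phat-5* r was -0.886 before this subtraction and -0.265 after it. These values are descriptions over 12 points that share libraries and, within a strain, genotype.

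The genes outside the family whose pattern was closest to the mean of the members were *nhr-127*, a nuclear receptor gene (r = 0.923, n = 12), and ZC376.8 (r = 0.922), followed by Y71F9AL.2, *oac-19*, T06D8.3, M176.9, C50D2.2, K03H1.8, H12I13.1 and C43E11.5, the last at r = 0.885. In all 10 the mean level was highest in WT and lowest in rescue. The 10 were picked for likeness to the mean of the members, *phat-5* included. Their shared order therefore comes from the choice and is a description. H12I13.1 was at 5.92 CPM in WT, 4.10 in the mutant and 3.64 in rescue, and *nhr-127* was at 0.504, 0.411 and 0.304 CPM.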

How the data were processed

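The authors ran bcbio-nextgen, checked read quality on STAR alignments to Ensembl 94 (WBcel235), and made estimated counts (expected counts) per gene from Salmon transcript estimates by way of tximport, unscaled between samples. The authors also deposited a normalized signal, the rounded counts over 1 DESeq2 size factor per sample, which was used only to check the counts. Expected counts were rounded, filtered with filterByExpr (15728 of 21882 genes kept) and scaled by TMM (factors 0.951 to 1.08). All 12 samples were fitted with edgeR 4.0.16 (glmQLFit and glmQLFTest, R 4.3.3) with 3 strain means, Benjamini-Hochberg adjustment over all genes tested and a threshold of 0.01. Strain and replicate came from the sample labels. Levels of different genes were ordered per exonic length, while shares within the chromosome V group are shares of counts, whose exonic lengths lie between 893 and 922 bases. Coordinates and exons come from a later Ensembl annotation of the same assembly, which holds 21714 of the deposited genes.

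The members and gene lists were chosen with earlier results of these data known. All members were named. From each list, the genes named were among the 4 with the smallest p over the 3 strains, except *gly-15*, named as the gene not tested, and *clc-18*, C49G7.7 and C49G7.12 were named after their values were seen. *phat-7* and *phat-8* were added from the newer annotation. The 10 genes most like the mean z-score of the members were named by Pearson correlation of log2 CPM (prior count 2). The part of reads that could not be assigned between similar genes was not measured.

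Mutant and rescue samples of the same number share a collection day by the labels. The correlation of their deviations from the strain means was -0.143 to 0.148. The method was tested on simulated data for mutant against WT, with 200 of 15728 genes changed 2-fold. It recovered 70% of these, and 1.41% of its calls were false, so some changes of that size are missed. Alternatives were DESeq2 1.42.0, other scalings, filters and thresholds, fits of the 2 strains compared alone, blocks for replicate number and collection day, and each replicate left out in turn. Intervals on counts and the floor of 3 counts cover counting error only. Sequences were not used here.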

Additional observations from a re-analysis of the deposited data

Results flagged for a closer look

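In 24 groups of 4 samples (8 *phat* genes in 3 strains), the highest or lowest sample was set against the others by Dixon's criterion, and 3 groups had a sample far from the rest. Chance flags about 1 in 20 groups. *phat-5* in rescue replicate 3 was at 3.11 CPM, against 1.84 to 2.04 CPM in the other rescue samples. *phat-6* in mutant replicate 3 was at 6.51 CPM, against 4.89 to 5.04 CPM in the other mutant samples. *phat-7* in rescue replicate 1 was at 81.6 CPM, against 68.7 to 70.9 CPM in the other rescue samples.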

How the results depend on the processing

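The number of members other than *phat-5* past the test was 1 for mutant against WT, 2 for rescue against WT and 0 for rescue against mutant. For mutant against WT it was 2 with DESeq2 and at a threshold of 0.05, and 1 to 2 with a replicate left out, *phat-4* being the gene added each time, as it was without WT replicate 2. For rescue against WT it was 3 with DESeq2, at a threshold of 0.05 and without WT replicate 2, *phat-2* being the gene added, 1 to 3 over the replicates left out, with 1 without rescue replicate 3 or rescue replicate 4, and 4 with WT replicates 2 and 4 left out together. With the replicate block the counts were 1, 2 and 0, so the block changed no call. *phat-1* for mutant against WT, never past the test, had the opposite sign with library size alone (0.028), with the replicate block (0.044) and the collection day block (0.0075), with a replicate left out (-0.23 to 0.16) and without WT replicates 1 and 3 (0.41, and 0.18 for rescue against WT). *phat-6* for rescue against WT, never past the test, had the opposite sign with library size alone (0.094), upper quartile scaling (0.0090), no filter (0.0029), 10 counts in every sample (0.020), the 2 strains alone (3.0e-04), the collection day block (0.0026), replicates left out (-0.045 to 0.064) and WT replicates 2 and 4 left out (0.037). *phat-3* for rescue against mutant was -0.012 without mutant replicate 4, in a range of -0.012 to 0.27 with a replicate left out. *phat-5* could not be fitted under 10 counts in every sample. The shallowest library, WT replicate 1, limits *phat-5*, where 3 counts are 0.21 CPM.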
